A study of Mus musculus with 7 samples.

Results

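The 8 genes described here are genes of megakaryocytes and platelets: Pf4, Ppbp, Vwf, Itga2b, Gp9, Gp1bb, Treml1 and Rab27b. They were chosen by name from knowledge of these cells, with earlier results of these data known. All 8 were among the 25033 gene symbols for which reads were counted, and all 8 passed the filter on low counts that left 11265 genes for testing. RNA was measured in lineage-depleted (lin-) bone marrow cells, the cells that remain once cells with markers of mature blood lineages have been removed, from 3 HRP-2 wild type (WT, Hrp2+/+) and 4 HRP-2 knockout (KO, Hrp2-/-) mice. The mice were of the line C57BL/6N-Hdgfrp2 tm1b (KOMP)Wtsi /Tcp, in which the gene for HRP-2, a chromatin reader related to LEDGF/p75, is disrupted in the whole body, and progenitors were taken from femur and tibia of 6- to 8-week-old animals. Each library came from 1 mouse. The sex of the mice and the antibodies of the depletion kit were not given in the sources used here.

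Megakaryocytes are the large polyploid cells of the bone marrow that shed platelets into the blood. They arise from stem cells and from progenitors shared with the erythroid lineage, and the fibrinogen receptor subunit encoded by Itga2b (CD41) appears early on this path, while several granule proteins and receptors for clotting are made in quantity only later. Their alpha granules store chemokines and adhesive proteins, their surface carries the receptors for von Willebrand factor and fibrinogen, and a dedicated secretion machinery brings granules to the membrane when a platelet is activated. The comparison asks whether lin- cells without HRP-2 held these transcripts at a different level.

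Levels are given in CPM, the reads of a gene scaled by edgeR to a library of fixed size with TMM factors. No gene of the 8 passed edgeR's quasi-likelihood test between genotypes, and the spread between the KO mice exceeded the difference between the means of the genotypes for each of them. KO replicate 4 had the highest level of all 8 genes and KO replicate 1 the lowest level of 6 of them, so the KO mice lay on both sides of the WT mice for every gene but Ppbp.

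The promoters of Pf4, Ppbp and Itga2b are shown because the first 2 are neighbouring genes with the widest spread between mice and Itga2b has the narrowest. Ppbp (chr5:90768518-90770063, plus strand) ends 2371 bases before Pf4 (chr5:90772435-90773383, plus strand) begins, and both encode chemokines. Itga2b lies on another chromosome (chr11:102453297-102470122, minus strand). Gene bounds were read from GENCODE M21 (GRCm38). The promoter sequences are those of RefSeq on GRCm38.p6 and run 5′ to 3′ on the strand of the gene, from 250 bases before the annotated start to 50 bases after it. They cover chr5:90772185-90772484 for Pf4, chr5:90768268-90768567 for Ppbp and chr11:102469834-102470133 for Itga2b, where the RefSeq start lies inside the gene as GENCODE draws it. Capitals mark GATAA, the core that GATA factors recognise, or GGAAG, a core that ETS factors recognise, each read on either strand (TTATC and CTTCC on the other).
Pf4: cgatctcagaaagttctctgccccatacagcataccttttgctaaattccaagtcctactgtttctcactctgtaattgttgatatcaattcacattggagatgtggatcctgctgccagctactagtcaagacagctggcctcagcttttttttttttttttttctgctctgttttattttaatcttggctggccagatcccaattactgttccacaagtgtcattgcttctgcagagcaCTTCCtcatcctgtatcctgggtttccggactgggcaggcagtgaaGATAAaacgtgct
Ppbp: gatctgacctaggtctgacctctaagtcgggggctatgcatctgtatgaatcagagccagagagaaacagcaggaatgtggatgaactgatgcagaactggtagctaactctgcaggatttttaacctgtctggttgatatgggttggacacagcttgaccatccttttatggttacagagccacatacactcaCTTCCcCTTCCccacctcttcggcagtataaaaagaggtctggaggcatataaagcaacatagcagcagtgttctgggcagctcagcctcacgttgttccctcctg
Itga2b: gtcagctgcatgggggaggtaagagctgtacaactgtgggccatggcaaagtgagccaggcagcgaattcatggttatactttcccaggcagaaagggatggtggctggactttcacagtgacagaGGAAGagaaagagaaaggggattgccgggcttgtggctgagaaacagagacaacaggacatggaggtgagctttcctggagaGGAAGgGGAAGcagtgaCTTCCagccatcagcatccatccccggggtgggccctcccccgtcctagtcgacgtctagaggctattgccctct
A match describes the letters only and is not evidence of binding. Windows were matched by symbol for 6 of the 8 genes, Pf4, Ppbp, Itga2b, Gp9, Gp1bb and Treml1. GATAA stood in 2 of these 6 windows, those of Pf4 and Gp9, against 25.4% of 32851 promoter windows of the same length. GGAAG stood in 6 of 6, against 71.4% of all windows, and the windows with both were 2 of 6 against 17.2%. In no window did a GATAA match share bases with a GGAAG match.

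The libraries held between 3525665 and 5605158 reads on genes per mouse, and reads of the ribosomal RNA precursor Rn45s made up between 4.94% and 20.6% of them, with 4.94% in KO replicate 1 and 18.6% in KO replicate 4. The knockout was visible in every mouse: Hdgfl2, the gene for HRP-2, stood at 43.7 CPM or more in WT and at 2.53 CPM or less in KO mice (log2 fold change −5.09, standard error 0.34, adjusted p = 1.38e-07, edgeR). KO replicate 3 stood apart in sex-linked transcripts, where its 0.561 CPM of Xist lay below the 229.0 to 302.8 CPM found in all other mice. The Y-linked gene Ddx3y stood at 104.5 CPM in KO replicate 3, at 0.777 CPM in KO replicate 1 and at 0 CPM in all other mice. Kit and Cd34, which mark the progenitors that the isolation is meant to keep, were present at 85.1 to 122.0 and 184.9 to 283.6 CPM. Of 11265 genes tested, 2 had an adjusted p under 0.25, the threshold used for genes, and these 2 were also under 0.05 (0.0178%).

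Pf4 encodes platelet factor 4 (CXCL4), a heparin-binding chemokine of the alpha granule. It stood at 190.2, 104.4 and 112.1 CPM in WT replicates 1 to 3, and at 20.8, 109.3, 61.5 and 572.3 CPM in KO replicates 1 to 4. Thus both the lowest and the highest value belonged to KO mice, 27.5-fold apart, and the WT values lay between them. The mean was 135.6 ± 47.5 CPM (SD, n = 3) in WT and 191.0 ± 256.8 CPM (SD, n = 4) in KO. The log2 fold change of KO against WT was 0.48 (standard error 1.17, 95% interval −2.48 to 3.45, adjusted p = 0.999, edgeR).

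Ppbp encodes pro-platelet basic protein, the precursor of the neutrophil-attracting chemokine CXCL7. Its level was 13.2, 5.60 and 2.13 CPM in the WT mice and 3.11, 6.44, 8.41 and 87.7 CPM in the KO mice, from 60, 20 and 8 reads and 16, 31, 45 and 352 reads. KO replicate 4 was again far above the rest, but here the lowest mouse was WT replicate 3, 41.3-fold below it. Ppbp had the largest log2 fold change of the 8, at 1.86, together with the largest standard error, 1.5, and an interval of −1.93 to 5.65 (adjusted p = 0.999, edgeR). Without KO replicate 4 this value was −0.24.

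Vwf encodes von Willebrand factor, the adhesive protein that tethers platelets to exposed collagen and that endothelial cells also make. It stood at 11.8, 6.16 and 7.44 CPM in WT and at 2.92, 4.78, 4.86 and 23.4 CPM in KO mice. KO replicates 1 to 3 lay below all 3 WT mice and KO replicate 4 lay above them. The means were nearly equal, 8.48 ± 2.98 CPM (SD, n = 3) and 8.99 ± 9.66 CPM (SD, n = 4), with a log2 fold change of 0.04 (standard error 0.66, interval −1.41 to 1.5). A list of 10 endothelial markers, which could bear on a gene that endothelial cells share, summed to 212.2 to 262.6 CPM in WT and 189.1 to 248.7 CPM in KO mice, with 248.7 CPM in KO replicate 4 and Cldn5 at 0 reads in every mouse. The part of such cells in the level of Vwf was not tested.

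Among the receptors, Itga2b encodes integrin alpha IIb, which pairs with integrin beta 3 to bind fibrinogen. Its level was 142.6, 116.8 and 98.8 CPM in the WT mice and 76.0, 65.9, 95.7 and 187.4 CPM in the KO mice. KO replicates 1 to 3 lay below all WT mice, the lowest being KO replicate 2, and KO replicate 4 lay above them. With 2.84-fold between the highest and the lowest mouse it was the steadiest of the 8 genes. The log2 fold change was −0.17 (standard error 0.37, interval −1.04 to 0.69, adjusted p = 0.999, edgeR) and was −0.59 (standard error 0.18, adjusted p = 0.939, edgeR) without KO replicate 4.

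Gp9 and Gp1bb encode small subunits of the GPIb-IX-V complex, the platelet receptor for von Willebrand factor, and had few reads. Gp9 gave 23, 8 and 11 reads in the WT mice (5.05, 2.24 and 2.92 CPM) and 0, 11, 12 and 43 reads in the KO mice (0, 2.29, 2.24 and 10.7 CPM). No read was found in KO replicate 1, where a count of 0 allows up to 3 reads or 0.630 CPM before TMM scaling, a limit that covers counting error only. KO replicate 4 was the highest mouse, and KO replicates 2 and 3 lay at the lower end of the WT range. The log2 fold change of Gp9 was 0.11 (standard error 0.93, interval −1.92 to 2.13).

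Gp1bb gave 27, 9 and 12 reads in WT (5.92, 2.52 and 3.19 CPM) and 4, 8, 11 and 35 reads in KO mice (0.777, 1.66, 2.06 and 8.72 CPM). As for Vwf and Itga2b, KO replicates 1 to 3 lay below all 3 WT mice and KO replicate 4 above them. Its log2 fold change was −0.28 (standard error 0.68, interval −1.72 to 1.15). Gp1bb (chr16:18620317-18622403, minus strand) shares exons with Sept5 and Gm49601 on the same strand, so that its reads are uncertain. Sept5 itself had 3 reads in all, 1 in KO replicate 1 and 2 in KO replicate 3.

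Treml1 encodes TLT-1, a receptor kept in alpha granules that reaches the surface when platelets are activated. It stood at 17.3, 12.04 and 17.3 CPM in WT and at 3.11, 11.4, 12.1 and 55.8 CPM in KO mice. The WT mice were close to each other, KO replicates 2 and 3 lay at or near the lowest WT mouse, and the other 2 KO mice lay 17.9-fold apart on either side. The log2 fold change was 0.38 (standard error 0.95, interval −1.99 to 2.75). Treml1 (chr17:48359916-48367176) is on the chromosome of Hdgfl2, at a distance of 7.71 Mb.

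Rab27b encodes a small GTPase that docks secretory granules at the membrane. Its level was 8.99, 6.16 and 4.78 CPM in WT and 2.14, 6.03, 3.18 and 17.4 CPM in KO mice. KO replicate 2 fell within the WT range, KO replicates 1 and 3 lay below it and KO replicate 4 above it. The log2 fold change was 0.08 (standard error 0.60, interval −1.20 to 1.36).

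**Figure D1:**
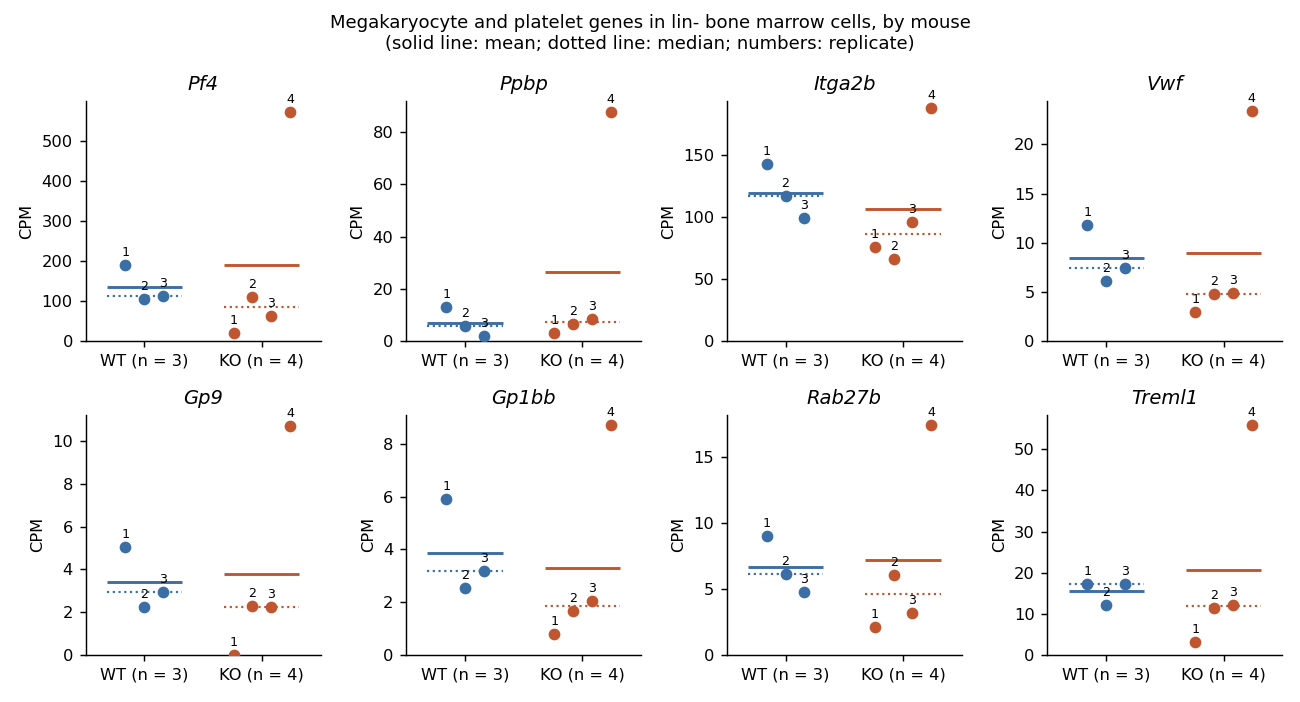
Level of each of the 8 genes in CPM (linear axes from 0, a separate scale for each gene) in 3 WT and 4 KO mice; points are mice with their replicate number, solid lines are means and dotted lines medians. KO replicate 4 is the highest mouse in all 8 panels, for example 572.3 CPM for Pf4 and 187.4 CPM for Itga2b, while the medians of the KO mice lie below those of the WT mice in 7 panels.

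Across the list, 0 of 8 genes had an adjusted p under 0.25 in edgeR's quasi-likelihood test (all 8 at 0.999), 0 of 8 had an unadjusted p under 0.05 (3.63% of all genes tested), and DESeq2 gave 0 of 7 at either limit, as it returned no p for Ppbp. Exact two-sided permutation tests of log2(CPM + 1) gave p between 0.543 and 0.83, where the smallest p that the 35 splits of 7 mice allow is 0.0286. The levels of the genotypes overlapped for all 8 genes, so that 0 of 8 were separated, against 5.16% of all genes tested. The median log2 fold change of the 8 was 0.09, beside −0.0014 over all genes tested. In bulk RNA, fewer cells of a type and less RNA per cell cannot be told apart. The narrowest of the 8 intervals was that of Itga2b, from −1.04 to 0.69, and the widest that of Ppbp.

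The direction depended on how the mice were summarised. The mean of the KO mice exceeded that of the WT mice for 6 of 8 genes, with ratios from 0.852 for Gp1bb to 3.79 for Ppbp. By the median it was lower for 7 of 8, with ratios from 0.583 for Gp1bb to 1.33 for Ppbp, the exception. When KO replicate 4 was left out, the log2 fold changes of all 8 genes were negative, from −1.37 for Gp1bb to −0.24 for Ppbp, and again 0 of 8 passed an adjusted p of 0.25 in edgeR (smallest adjusted p = 0.939), with 3 at an unadjusted p under 0.05 (3.69% of the genes tested in that fit). The levels of the remaining mice then no longer overlapped for 3 of 8 genes, Itga2b, Vwf and Gp1bb, where KO replicates 1 to 3 were below all WT mice, as was the case for 5.1% of all genes tested. When KO replicate 1 was left out instead, 7 of 8 values were positive, up to 2.23 for Ppbp. Without both of these mice, a choice made after their values were seen, 7 values were negative and Ppbp stood at 0.07. Leaving out KO replicate 3, the mouse that differed in Xist, kept every direction.

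**Figure D2:**
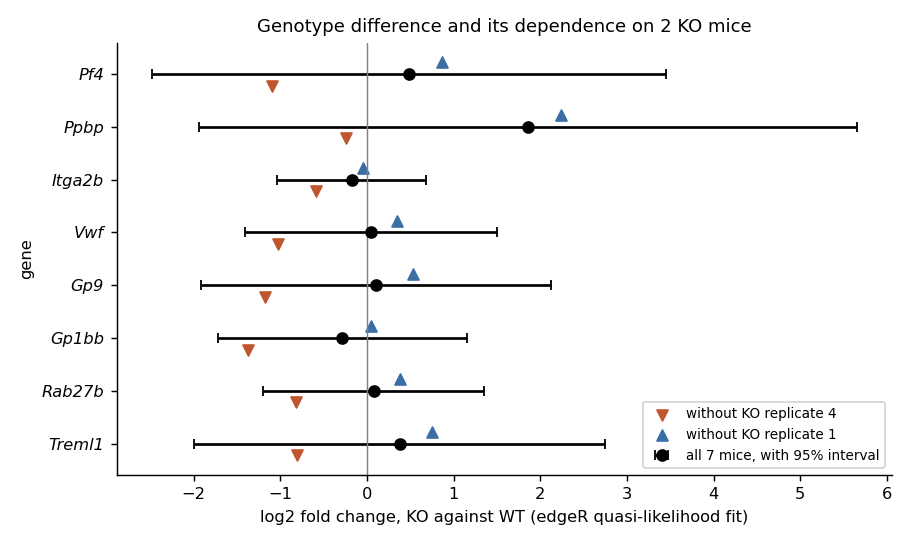
Log2 fold change of KO against WT for each gene (circles, with 95% intervals from edgeR's quasi-likelihood fit of 7 mice) and the same value without KO replicate 4 (downward triangles) or without KO replicate 1 (upward triangles). All 8 intervals include 0, and without KO replicate 4 all 8 values lie below 0, between −1.37 and −0.24.

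The same mice stood at the top for every gene, while the order of the mice between the extremes changed from gene to gene. KO replicate 4 was the highest mouse for 8 of 8 genes, against 14.4% of all genes tested, and WT replicate 1 was second for 8 of 8, against 14.2%. KO replicate 1 was the lowest for 6 of 8, against 15.8% of all genes, the exceptions being Ppbp and Itga2b. Both held for 6 of 8 genes and for 3.04% of all genes. Summed over the 8 genes, the level was 395.1, 255.9 and 248.7 CPM in the WT mice and 108.8, 207.8, 190.0 and 963.5 CPM in the KO mice. KO replicates 1 to 3 therefore lay below each WT mouse in the sum and KO replicate 4 lay above, 8.85-fold from the lowest.

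**Figure D3:**
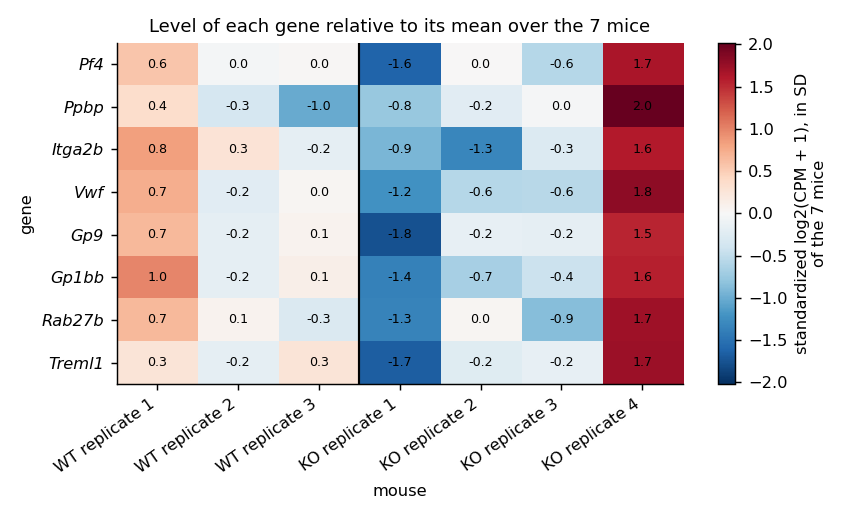
Standardized level of each gene (rows) in each mouse (columns), as the distance in SD from the mean of log2(CPM + 1) over 7 mice; red is above and blue below the mean, and the black line separates WT from KO. The column of KO replicate 4 is the reddest in all 8 rows and that of KO replicate 1 the bluest in 6.

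The reads of the genes relative to those of Itga2b, a ratio used here to compare mice and not genes, also varied. Pf4 gave 1.33, 0.894 and 1.13 reads for each read of Itga2b in the WT mice and 0.274, 1.66, 0.643 and 3.05 in the KO mice. This ratio, which does not depend on library scaling, was thus lowest in KO replicate 1 and highest in KO replicate 4, 11.2-fold apart. The ratio of Ppbp to Itga2b reads spanned 21.8-fold, from 0.0215 in WT replicate 3 to 0.468 in KO replicate 4. It spanned 7.28-fold for Treml1, 4.55-fold for Gp1bb, 3.31-fold for Rab27b and 3.26-fold for Vwf, while Gp9 had no reads in KO replicate 1 and thus no finite span. The wider spans rested in part on KO replicate 4, without which they were 6.06-fold for Pf4, 4.55-fold for Ppbp and 4.27-fold for Treml1. No test was made of these ratios.

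The spread between mice was set beside the SD that the read counts alone would give. It was 4.18 to 38.2 times that SD in the KO mice. In the WT mice it was 8.19 times for Pf4 but 1.53 times for Treml1 and 1.67 times for Rab27b, and whether these smaller ratios exceed counting error was not tested. The coefficient of variation in CPM ran from 18.4% for Itga2b to 81.1% for Ppbp in WT mice and from 52.2% to 154.9%, for the same genes, in KO mice. edgeR's biological coefficient of variation, the spread between mice of a genotype beyond counting error, was 113.2% for Ppbp, 96.5% for Pf4, 80.1% for Treml1 and 78.2% for Gp9. It was 56.2% for Vwf, 54.8% for Gp1bb, 50.7% for Rab27b and 33.1% for Itga2b. The median of the 8 was 67.2%, beside 20.2% over all genes tested, of which 95% lay below 44.7%, and 7 of the 8 genes exceeded that value.

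**Figure D4:**
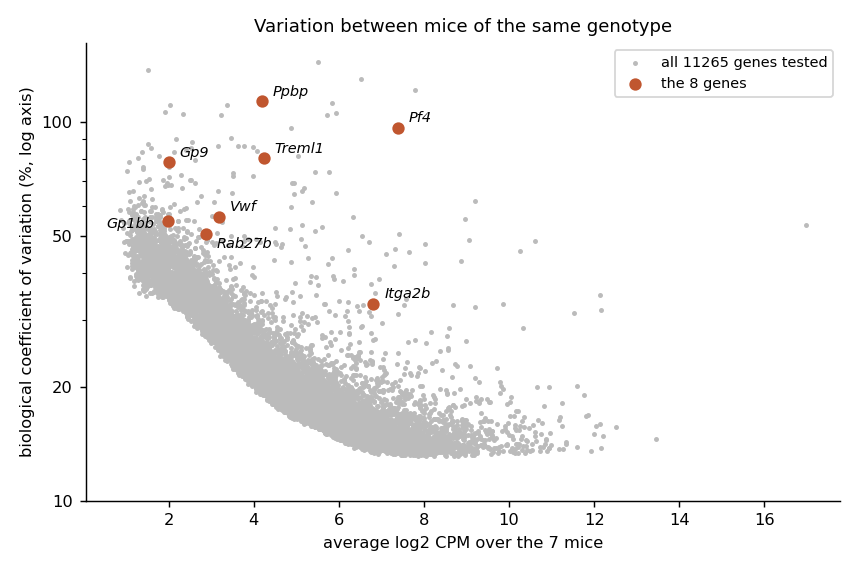
Biological coefficient of variation (%, log axis) against average level (log2 CPM over 7 mice) for the 11265 genes tested in grey and the 8 genes in orange. Pf4 (96.5%) and Ppbp (113.2%) lie near the top of the cloud and Itga2b (33.1%) above most genes of its level.

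Other genes linked to megakaryocytes and platelets were examined as a list of 76 genes written by role. The list was not limited to genes that these cells alone express, and the part of other cells in their levels was not tested. Of the 76 genes, 67 passed the filter on low counts. Of these, 27 had positive and 40 negative log2 fold changes, with a median of −0.06, and 0 of 67 had an adjusted p under 0.25 in edgeR, nor had any of the 66 genes to which DESeq2 gave an adjusted p (all but Sparc). F2r, the gene of the thrombin receptor PAR1, was the 1 gene with an unadjusted p under 0.05 (3.63% of all genes tested). Which cells gave the reads of F2r was not tested. Its level was 67.6, 74.5 and 54.7 CPM in WT and 30.9, 35.7, 43.5 and 66.5 CPM in KO mice, so that KO replicates 1 to 3 lay below all WT mice and KO replicate 4 among them. For F2r the edgeR fit gave −0.58 ± 0.22 (log2 fold change ± standard error, adjusted p = 0.999).

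By role, 2 of 9 surface receptors tested had positive and 7 negative values, from Gp1ba, the ligand-binding subunit of the GPIb complex, at −0.89 (standard error 0.57) to Selp, the granule adhesion molecule P-selectin, at 0.42 (0.65). Receptors of soluble agonists divided into 2 positive and 6 negative, between F2r and the thrombin receptor PAR4 gene F2rl3 at 0.59 (0.41). Of 8 granule cargo genes 5 were positive and 3 negative. Sparc, a matrix protein of the alpha granule, had the largest value of the list at 3.02 (1.40), with 5.27, 8.12 and 3.45 CPM in WT and 13.4, 14.1, 10.8 and 146.5 CPM in KO mice. Its levels did not overlap between genotypes, which was so for 2 of 67 genes (Sparc and Pear1, a platelet adhesion receptor) against 5.16% of all genes, and KO replicate 4 stood far above the other KO mice. Clu, the chaperone clusterin, had the lowest cargo value at −0.38 (0.52).

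Genes of granule formation and release numbered 5 positive and 3 negative, from Slc35d3, a gene of dense granule formation, at −0.61 (0.46) to the fusion protein Stx11 at 0.35 (0.24). Cytoskeletal genes lay between Lims1 at −0.29 (0.17) and Flna, the filamin that anchors the GPIb complex, at 0.28 (0.19). Signalling genes lay between Fermt3, the kindlin that activates integrins, at −0.37 (0.18) and Ptgs1, the cyclooxygenase of the thromboxane path, at 0.32 (0.22). Among 14 transcription factors 3 were positive and 11 negative, from Gata1, a master factor of the megakaryocyte and erythroid lineages, at −0.52 (0.31) to Mafg at 0.19 (0.19). Gata1 did not follow the order seen in the 8 genes, with 11.8, 21.6 and 21.5 CPM in WT and 15.9, 8.31, 9.72 and 17.2 CPM in KO mice.

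KO replicate 4 was the highest mouse for 21 of the 67 genes and KO replicate 1 the lowest for 20, and both held for 8, against 14.4%, 15.8% and 3.04% of all genes. Gp5, a subunit gene of the von Willebrand factor receptor and named after its values were seen, was one of them, with 45, 37 and 26 reads in WT and 1, 16, 34 and 106 reads in KO mice. Gp1ba, a gene of the same receptor, was not: WT replicate 1 was its highest mouse and KO replicate 3 its lowest. It had 24, 18 and 12 reads in WT and 13, 7, 6 and 19 reads in KO mice. Among the 9 genes with too few reads to test were defining genes of mature platelets. The platelet beta-tubulin gene Tubb1 had 3 reads and the collagen receptor gene Gp6 had 1, all in KO replicate 4. Mpig6b had 0 reads in the WT mice and 0, 3, 3 and 14 in the KO mice, and Clec1b, the podoplanin receptor gene, had 7, 11 and 6 reads in WT and 4, 8, 7 and 32 in KO mice. KO replicate 4 had the most reads for each of these 4 genes.

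**Figure D5:**
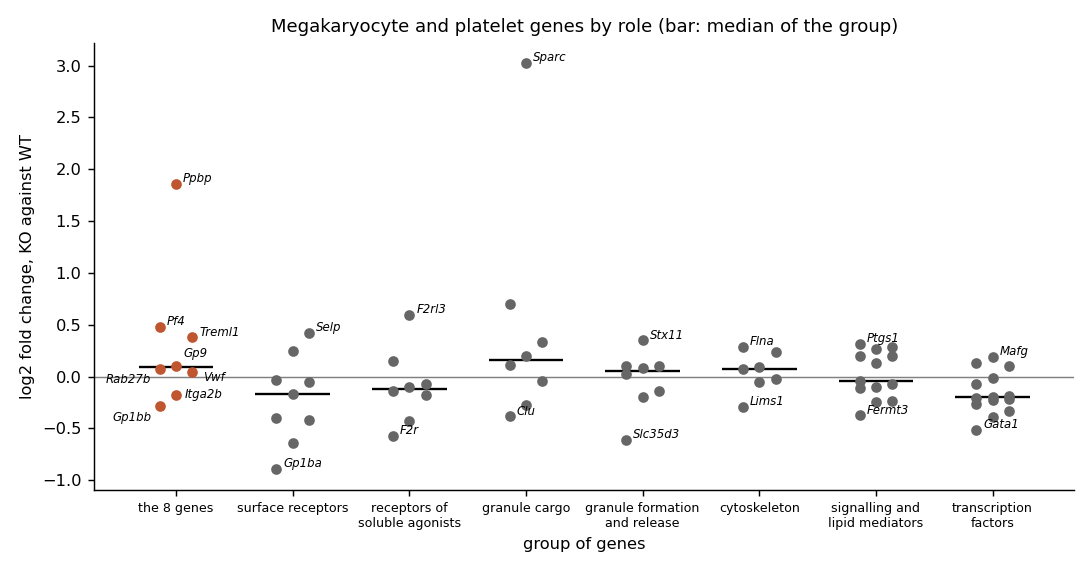
Log2 fold change of KO against WT (edgeR) for the 8 genes (orange) and for the 67 further genes tested from the list written by role (grey). Each point is a gene and each bar the median of its group. The 2 points beyond 1 on either side of 0 are Ppbp at 1.86 and Sparc at 3.02.

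Markers of other cells were summed in the same libraries. The 12 erythroid markers summed to 291.6 to 574.8 CPM in WT and 311.1 to 508.8 CPM in KO mice, with 508.8 CPM in KO replicate 4 and at most 327.3 CPM in the other KO mice, and the 4 globin genes of the list had no reads in any mouse. Of the 8 erythroid markers tested, KO replicate 4 was the highest mouse for 4 and KO replicate 1 the lowest for 6. Both held for 4 of them, against 3.04% of all genes tested. The 10 B lineage markers summed to 254.3 to 445.8 CPM in WT and 185.2 to 527.0 CPM in KO mice, KO replicate 4 having the highest sum and the highest level of 7 of the 10 genes. The 12 stem and early progenitor markers summed to 627.8 to 741.5 CPM in WT and 595.7 to 673.4 CPM in KO mice, with KO replicate 4 the lowest mouse. The 10 macrophage markers summed to 408.9 to 465.9 CPM in WT and 286.1 to 342.1 CPM in KO mice, without overlap, and the 10 neutrophil markers to 7989 to 11139 and 9071 to 25203 CPM. The 10 basophil and mast cell markers summed to 3355 to 3808 CPM in WT and 2278 to 3530 CPM in KO mice, with 2694 CPM in KO replicate 4. KO replicate 4 thus had the highest level among the KO mice in the erythroid, B lineage and endothelial sums, as in each of the 8 genes. The part of these cells, or of the content of Rn45s, in the levels of the 8 genes was not tested.

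The genes whose pattern over the 7 mice was most like that of the 8 were sought among all other genes tested, by the mean absolute difference between standardized values. They were Aacs (0.137 SD), Fsd1l (0.143), Timp3 (0.151), Sf3b4 (0.210) and Rpap1 (0.211), beside a median of 1.06 over the other genes. The likeness is in shape only. Timp3, a metalloproteinase inhibitor gene of the cargo list, ran from 1.55 CPM in KO replicate 1 to 39.6 CPM in KO replicate 4, 25.5-fold, whereas Aacs ran from 17.7 to 29.6 CPM between the same mice. Of the 8 genes, Vwf lay closest to their common pattern (0.140 SD) and Ppbp farthest from it (0.403 SD), with 68 genes outside the list nearer than Ppbp.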

How the data were processed

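RNA of lin- bone marrow cells was made into QuantSeq 3′ end libraries, which prime on the poly(A) tail. The authors aligned reads to GRCm38 with STAR and deposited raw counts of reads per gene symbol for each mouse. The counting strand was not given in the sources used here. The closing tally rows of each file (reads on no gene or on several), 29.4% to 33.6% of the total, were left out. Counts were taken at the 3′ ends of transcripts and were not divided by gene length, and genes were not ranked by level.

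Counts were tested with edgeR 4.0.16 in R 4.3.3 (TMM, filterByExpr, robust quasi-likelihood test, Benjamini-Hochberg adjustment over all 11265 genes). The threshold was an adjusted p of 0.25, with 0.05 beside it. The standard error is the log2 fold change divided by the square root of F. Permutation tests used SciPy 1.17.1. DESeq2 1.42.0, limma-voom (limma 3.58.1), other scalings and filters, a replicate block and the omission of each mouse were alternatives. No 2 libraries of 1 genotype were alike within sampling noise.

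The 8 genes and all lists were chosen with earlier results of these data known. The text names the 8 genes, the listed genes with an unadjusted p under 0.05, those with the largest positive and negative value by role, the 5 most alike, Hdgfl2 and Rn45s. Gp5, Pear1, Sept5, Cxcl2, Cxcl3, Cxcl5, Xist, Ddx3y, Kit, Cd34, Cldn5 and the genes too low to test were named after their values were seen.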

Additional observations from a re-analysis of the deposited data

Results flagged for a closer look

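In the 4 KO mice, 36 quantities were checked for a value far from the rest. Chance picks out about 1 in 20 of such checks, or 1.8 of 36 were they independent, which they are not: the 8 genes vary together, and some of the others were chosen for a like pattern. In 9 of them the gap between the highest mouse and its nearest neighbour took up more of the whole range than Dixon's critical value allows, and in all 9 that mouse was KO replicate 4.

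Among the 8 genes these were Pf4 at 572.3 CPM, Ppbp at 87.7 CPM, Vwf at 23.4 CPM and Gp1bb at 8.72 CPM. The granule gene Sparc stood at 146.5 CPM and Timp3 at 39.6 CPM. Sf3b4 stood at 69.5 CPM and Rpap1 at 37.4 CPM, and like Timp3 these had been picked as most like the 8 genes, so that their separation in this mouse is not independent of the others. The summed erythroid markers stood at 508.8 CPM, which was within the range of the WT mice. The cause was not tested.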

How the results depend on the processing

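No alternative brought any of the 8 genes or of the 67 further genes that it could test past an adjusted p of 0.25, but directions changed. DESeq2 gave no adjusted p for Ppbp and Sparc, and with at least 10 counts in every mouse 5 of the 8 (not Ppbp, Gp9 or Gp1bb) and 58 of the 67 genes were tested. The cause of each reversal was not tested. Over the whole table the 2 genes past that threshold became 21 with DESeq2, 29 with edgeR's likelihood ratio test, 41 without a filter on low counts, 1 with at least 10 counts in every mouse and 5 without KO replicates 1 and 4.

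With limma-voom the log2 fold change was −0.53 for Pf4, −0.50 for Vwf, −1.28 for Gp9, −0.45 for Rab27b and −0.42 for Treml1. With library size as the only scaling it was −0.012 for Vwf. An alternative without KO replicates 1 and 4 was added after the values were seen. It gave −0.67 for Pf4, −0.82 for Vwf, −0.60 for Gp9, −0.54 for Rab27b and −0.40 for Treml1. Among the remaining mice 3 genes had levels that did not overlap between genotypes. The share over all genes was not counted without KO replicates 1 and 4, so nothing is concluded from this number.

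With 1 mouse left out in turn, log2 fold changes ran from −1.09 to 0.86 for Pf4, −0.24 to 2.75 for Ppbp, −0.59 to −0.0026 for Itga2b, −1.02 to 0.38 for Vwf, −1.18 to 0.53 for Gp9, −1.37 to 0.18 for Gp1bb, −0.82 to 0.38 for Rab27b, −0.81 to 0.75 for Treml1 and −5.62 to −4.86 for Hdgfl2. Their median ran from −0.92 to 0.46 (0.09 with all mice). The number of the 8 that did not overlap ran from 0 to 3, with 3 when KO replicate 4 was left out. In that set KO replicates 1 to 3 lay below all WT mice for 5.1% of all genes tested. For the other omissions the share over all genes was not counted. The number past the threshold in the whole table ran from 2 to 7, with 7 when WT replicate 1 was left out and 4 when KO replicate 1 was. Leaving out WT replicate 2 gave −0.14 for Vwf and −0.11 for Gp9, and leaving out WT replicate 3 gave −0.043 for Vwf and −0.11 for Rab27b. For Gp1bb, leaving out WT replicate 1 gave 0.18 and leaving out KO replicate 1 gave 0.046.

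Same-numbered mice of the genotypes are different animals, and their deviations from the group means correlated at −0.0249, −0.215 and −0.160. None of these was positive, and the mice were not paired in the main fit. So few mice cannot settle whether same-numbered mice shared a batch. With the replicate number as a block, which leaves KO replicate 4 without a partner, the log2 fold change was −1.26 for Pf4, −0.098 for Ppbp, −0.996 for Vwf, −1.32 for Gp9, −0.87 for Rab27b and −0.93 for Treml1, the median of the 8 was −0.96, and 1 gene of the whole table passed the threshold.

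Depth was lowest for Gp9 and Gp1bb, with 43 reads or fewer in every mouse.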

Other observations

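Cxcl5, a chemokine gene of the same family as Pf4 and Ppbp, is not in the lists and had too few reads to test. It had 0 reads in the WT mice and 0, 0, 1 and 17 reads in KO replicates 1 to 4. Cxcl3 had 0, 2 and 0 reads in WT and 0, 3, 8 and 2 in KO mice, and Cxcl2, which is abundant in activated myeloid cells, stood at 61.2, 14.8 and 5.58 CPM in WT and 39.8, 36.8, 42.4 and 46.8 CPM in KO mice. KO replicate 4 had the most reads of Cxcl5, was within the range of the other KO mice for Cxcl3 and was the highest KO mouse, but below WT replicate 1, for Cxcl2.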
